A study of Mus musculus with 7 samples.

Results

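The miR-130 and miR-301 family comprised 4 hairpins, mmu-mir-130a, mmu-mir-130b, mmu-mir-301a and mmu-mir-301b, out of 1131 hairpins with a tag. Members were found by placing every deposited tag on the mouse hairpins at its best ungapped hit with at most 2 mismatches, and tags were then summed by arm, start, end, length and base change. The tags came from HL-1 cells, an immortalised beating cardiomyocyte line that was derived from a mouse atrial tumour and therefore stands for a single transformed lineage and not for heart tissue. Untreated cultures were seeded at low density and sampled on days 1, 3 and 4 in both of 2 time courses and on day 2 in time course 2 alone, a span over which non-beating cells went over to beating. Time courses 1 and 2 are the replicate numbers of the labels and stand for independent repeats, so each time course is 1 repeat sampled on several days. Libraries of the same time course deviated together. Tests between time courses use days as replicates, and comparisons of members count all 7 libraries as separate units, so their p-values are too small. Comparisons of days instead carry this shared deviation in their error. For strand levels and arm use they called fewer than models with the time course as a block. Libraries held 4945112 to 6899476 tags, 41180989 in all, and levels are given in CPM, a strand's tags scaled to the same deposited total in every library, with the SD over the 7 libraries.

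The labelled cell type was checked with marker miRNAs. The cardiomyocyte miRNAs miR-1a, miR-133a, miR-208a and miR-499 summed to 84283 to 104047 CPM over the libraries, although miR-499, a miRNA of a myosin heavy chain gene, had only 2.83 to 11.05 CPM. Endothelial miR-126a had 482 to 919 CPM, and the lists for blood (4 miRNAs, 37.8 to 62.9 CPM), fibroblasts (2 miRNAs, 13.3 to 31.3 CPM) and epithelium (5 miRNAs, 8.26 to 15.9 CPM) were far lower, with no marker at 0 in any library. Their part in the family's levels was not tested.

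A microRNA (miRNA) hairpin is cut by Drosha and Dicer into a duplex of a 5p and a 3p strand, and the strand kept by Argonaute finds its target mRNAs mainly through its seed, bases 2 to 8. miRNAs with the same seed are grouped into a family because they can recognise the same sites. Where a cut moves at the 5′ end the seed changes. A different 3′ end, whether from a cut, trimming or added bases, changes the length and leaves the seed as it was. miR-130a has been studied in endothelial cells and adipocyte precursors, and the family as a whole in vascular cells.

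The mature strands are shown because the results turn on what they share and where they part. For 7 of the 8 member strands a mature sequence was found in RefSeq (GRCm38.p6) and miR-301b-3p is shown by its most frequent deposited tag, with U for T. Sequences are written 5′ to 3′ with the seed in capitals.
miR-301a-3p: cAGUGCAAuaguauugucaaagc
miR-301b-3p: cAGUGCAAugguauugucaaagcau
miR-130a-3p: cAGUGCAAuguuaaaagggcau
miR-130b-3p: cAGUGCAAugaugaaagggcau
miR-301a-5p: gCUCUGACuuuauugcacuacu
miR-301b-5p: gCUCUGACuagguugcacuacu
miR-130a-5p: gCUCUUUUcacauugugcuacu
miR-130b-5p: aCUCUUUCccuguugcacuacu
All 4 of the 3p strands held the seed AGUGCAA. Their first 9 bases were the same, and the strands fell into 2 pairs beyond that point. miR-301a-3p and miR-301b-3p matched at 22 of 23 bases and differed by A10G, and miR-130a-3p and miR-130b-3p matched at 20 of 22 bases and differed by U11A and A13G (positions from the 5′ end, the base of the first-named strand first). Across the pairs, 11 to 13 of 22 bases matched. On the 5p side miR-301a and miR-301b shared the seed CUCUGAC, while miR-130a-5p (CUCUUUU) and miR-130b-5p (CUCUUUC) shared theirs with no other member.

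The hairpins lay at 3 places in the genome (GRCm38, GENCODE annotation). miR-301a (gene symbol Mir301) was at chr11:87113004-87113089 on the plus strand, inside an intron of the protein-coding gene Ska2 on the same strand. miR-130b at chr16:17124061-17124142 and miR-301b at chr16:17124400-17124496 were neighbours on the minus strand, 257 bases apart, and both lay in an intron of 2610318N02Rik with no overlap with its exons. miR-130a was at chr2:84741115-84741178 on the minus strand, between Ypel4 and Gm19426 and inside no other gene.

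The family supplied 5.41% ± 0.306 of all tags (SD, n = 7 libraries). Nearly all of it came from miR-301a-3p and miR-130a-3p, with miR-301a-3p at 70.8% ± 6.84 and miR-130a-3p at 26.4% ± 6.86 of family tags. miR-301a-3p ranked 5 of 2059 strands with a tag, with a lowest level of 31702, a median of 39164 and a highest level of 45515 CPM. miR-130a-3p ranked 17, with a lowest level of 9077, a median of 13529 and a highest level of 18781 CPM. The remaining 3p strands were much scarcer, miR-301b-3p ranking 102 at 682 to 931 CPM and miR-130b-3p ranking 229 at 44.2 to 73.6 CPM. Among the 5p strands miR-301a-5p (300.0 ± 37.5 CPM) and miR-130a-5p (291 ± 86.9 CPM) had like levels, miR-130b-5p had 26.7 ± 10.7 CPM, and miR-301b-5p had 3.28 ± 1.39 CPM from 135 tags. In the order of the 3p levels the ranges of neighbours did not overlap. The order of the 5p levels held between miR-130a-5p, miR-130b-5p and miR-301b-5p, whereas the ranges of miR-301a-5p and miR-130a-5p overlapped.

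The neighbours on chromosome 16 did not have like levels. There were 14.5 ± 3.95 tags of miR-301b-3p for each tag of miR-130b-3p, with 10.3, 11.3, 11.8 and 12.3 in time course 2, against 18.8, 19.5 and 17.7 in time course 1. How many other pairs of strands have ratios that differ so between the time courses was not counted. Counting both arms, the miR-301b hairpin had 6.72 to 14.9 tags for each tag of the miR-130b hairpin. Ligation and amplification can favour some sequences over others, so a ratio between different strands is one of tags, and what it owes to the preparation was not tested.

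Since miR-301a-3p had 48.8 ± 11.2 tags for each tag of miR-301b-3p and differs from it by A10G alone within 23 bases, it was asked whether miR-301b tags could be misread miR-301a. The hairpins differ again at base 27, where miR-301a has C and miR-301b has U, so tags of 27 nt or more show both places. These are the 27-nt forms, with the bases past 23 in capitals.
miR-301a-3p: cagugcaauaguauugucaaagcAUCC
miR-301b-3p: cagugcaaugguauugucaaagcAUCU
Of 36021 such tags with C at base 27, 0 had G at base 10, which allows a share of up to 0.00833% (3 tags; counting error only). Of 4388 tags with U at base 27, 4156 had G at base 10 and 232, or 5.29%, had A there. A change of base 10 of miR-301a to that of miR-301b was therefore not detected among tags with C at base 27. The 232 tags with A at base 10 and U at base 27 match each hairpin at 1 of these bases, and their origin cannot be told. Tags that fit another hairpin equally well were few, at 0.353% of miR-301b-3p, 1.11% of miR-130b-3p and 0.00743% or less of the other strands.

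Summed over all hairpins, the seed AGUGCAA ranked 5 of 8982 seeds and was carried by 5.29% ± 0.299 of tags, 99.99% of them from the 4 hairpins. RefSeq lists 4 further mouse miRNAs with this seed, of which miR-721 had 245 tags with the seed, miR-130c and miR-6341 had 0.5 each after tags that fit several hairpins were divided, and miR-6389 had 0. The miR-148 family has a seed offset by 1 base from this one, and that of miR-19 overlaps it. The 3p strands of miR-19a and miR-19b had 3842 to 5440 CPM together, and those of miR-148a, miR-148b and miR-152 had 994 to 3373 CPM together.

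**Figure D1:**
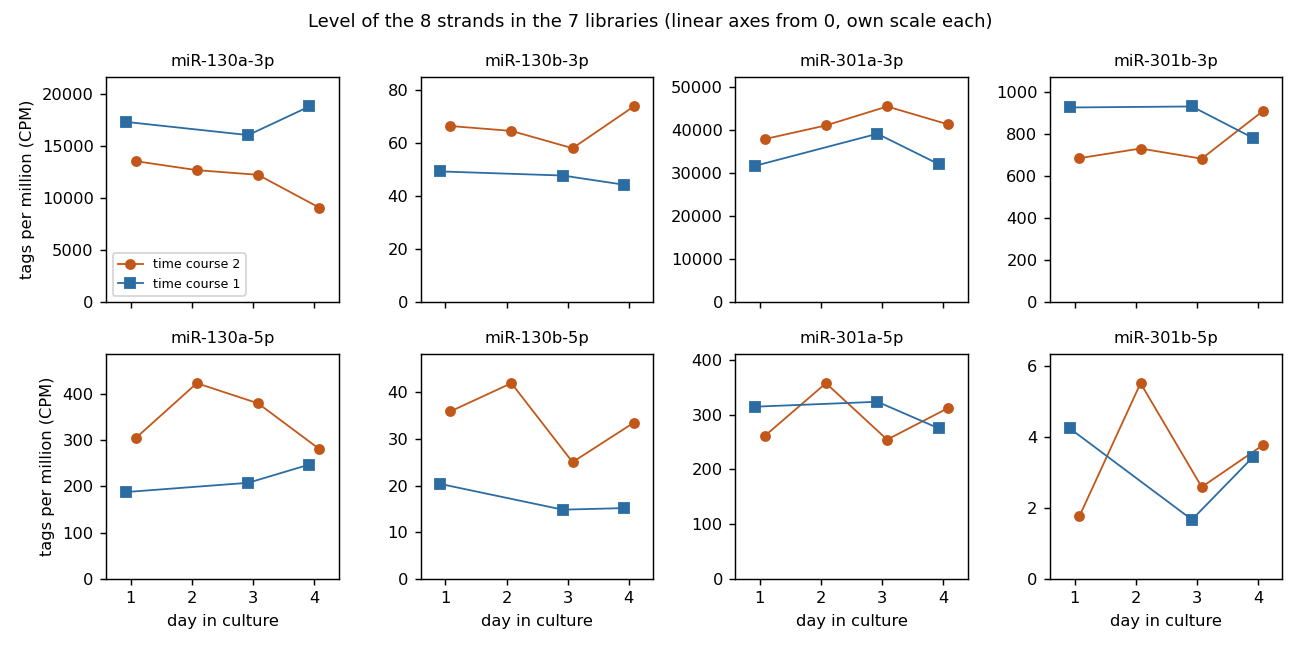
Level of each member strand in CPM (y, linear from 0, each panel on its own scale) by day in culture (x), with circles for time course 2 and squares for time course 1. The time courses did not overlap for both strands of miR-130a and both strands of miR-130b, while those of miR-301a and miR-301b did.

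The comparison of days asked whether the family's levels relative to other miRNAs changed as the cultures went over to beating. No member passed the test, and fewer cells with a strand cannot be told apart from less of it per cell in such bulk libraries. Levels were scaled within each library, so a rise or fall shared by all miRNAs could not be seen. The authors reported a global rise over the culture by quantitative PCR against small nucleolar RNAs. It was measured on selected miRNAs in a single time course, with no member among them, and the miRNAs chosen as falling decreased marginally. Whether the absolute amount of the family changed was not tested. miR-301a-3p had 37933, 41104, 45515 and 41334 CPM on days 1 to 4 of time course 2, and 31702, 39164 and 32116 CPM on days 1, 3 and 4 of time course 1. Both day 4 values lay within the range of the earlier days. miR-130a-3p had 13529, 12668, 12220 and 9077 CPM on days 1 to 4 of time course 2, and 17301, 16034 and 18781 CPM on days 1, 3 and 4 of time course 1. The day 4 libraries were thus the lowest and the highest of all 7 for this strand, and its log2 change at day 4 relative to day 1 came to -0.58 for time course 2, against 0.12 for time course 1. None of the 8 strands had day 4 levels that lay apart from those of day 1, beside 44.6% of all strands tested. By edgeR's quasi-likelihood test with Benjamini-Hochberg adjustment, log2 fold changes of day 4 over day 1 ran from -0.02 for miR-130b-5p (SE 0.55, adjusted p = 0.997) to 0.48 for miR-301b-5p (SE 0.53, adjusted p = 0.788). miR-301a-3p was at 0.28 (SE 0.27, adjusted p = 0.756) and miR-130a-3p at 0.07 (SE 0.38, adjusted p = 0.98), whose direction turned to -0.15 when libraries were scaled by their totals, a scaling that shifted the median strand by -0.20. At day 4, 0 of 8 members were called at an adjusted p under 0.05, beside 0% of 789 strands tested (76 had an unadjusted p under 0.05, and DESeq2 called 8 strands, no member among them). At days 3 and 2 against day 1, 0 of 8 members were called as well, beside 0% of 789 strands (41 and 30 at an unadjusted p under 0.05). Libraries of the same time course deviated together, and with that number as a block edgeR called 78, 52 and 4 strands on days 4, 3 and 2. The block left 0 of the 8 members called at day 4, with the lowest adjusted p at 0.45 for miR-301a-3p. The seed as a whole gave the same picture, with a log2 fold change of 0.15 of day 4 over day 1 (SE 0.24, adjusted p = 0.927) and 0% of 1586 seeds called (119 at an unadjusted p under 0.05).

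The repeats themselves were also compared, a comparison of 1 repeat with 1 in which the error comes from the days within each. miR-130a-3p was lower in every library of time course 2 (9077 to 13529 CPM) than in those of time course 1 (16034 to 18781 CPM). Its partner strand lay the other way, with miR-130a-5p at 305, 424, 380 and 281 CPM in time course 2 and 188, 208 and 248 CPM in time course 1. miR-130b-5p had 35.9, 42.0, 25.03 and 33.5 CPM in time course 2, against 20.3, 14.8 and 15.2 CPM in time course 1. The time courses did not overlap for 4 of 8 members, these and miR-130b-3p (57.9 to 73.6 CPM in time course 2, 44.2 to 49.2 CPM in time course 1), beside 18.1% of all strands tested (11.2% higher and 6.97% lower in time course 2). Between time courses, edgeR's quasi-likelihood test with day in the model called 13.2% of 789 strands (10.3% higher and 2.92% lower in time course 2, or 104 strands) and 1 of 8 members, miR-130b-5p, which was higher in time course 2 (log2 fold change 0.92, SE 0.24, adjusted p = 0.0202). That call was lost, at the same direction, when any 1 of 5 libraries was left out (day 1 of either time course, day 3 of time course 2 or day 4 of either time course), with a log2 fold change from 0.74 to 1.03 over the 7 libraries left out in turn. The 104 calls over all strands were themselves 6 to 84 with a library left out and 31 among tags without a mismatch. The remaining members did not pass, including miR-130a-3p (log2 fold change -0.59, SE 0.20, adjusted p = 0.0784), miR-130a-5p (0.60, SE 0.26, adjusted p = 0.162), miR-130b-3p (0.50, SE 0.25, adjusted p = 0.219) and miR-301a-3p (0.29, SE 0.17, adjusted p = 0.273). The ratio of miR-301a-3p to miR-130a-3p restates the levels above, and how many other pairs of strands differ so between the time courses was not counted. There were 2.80, 3.24, 3.72 and 4.55 tags of miR-301a-3p for each tag of miR-130a-3p in time course 2, against 1.83, 2.44 and 1.71 in time course 1.

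Over the 7 libraries, the strands whose log2 CPM was most like that of miR-130a-3p among 285 strands with at least 1000 tags were let-7c-5p (Pearson r 0.984), let-7g-5p (0.970) and miR-98-5p (0.963). For miR-301a-3p they were miR-181a-2-3p (0.865), miR-7a-2-3p (0.834) and miR-532-3p (0.830). These points share their libraries and time courses and are given as a description.

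**Figure D2:**
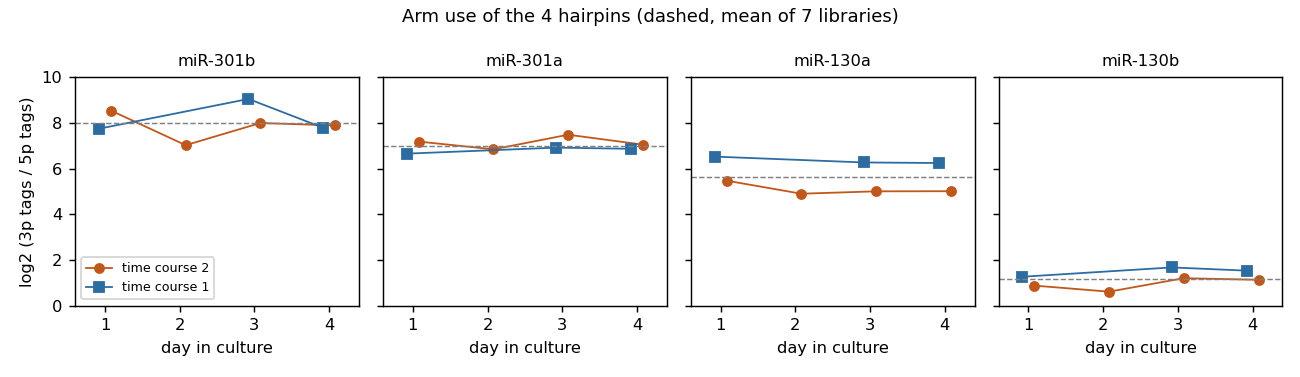
Arm use of each hairpin as the log2 of 3p tags over 5p tags (y) by day in culture (x), with circles for time course 2, squares for time course 1 and the mean of the 7 libraries dashed. The hairpins kept the order miR-301b, miR-301a, miR-130a, miR-130b at each day of each time course, and miR-130a and miR-130b had lower ratios in all libraries of time course 2 than in those of time course 1, beside 11.3% of 415 hairpins whose time courses did not overlap in either direction.

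In all 4 hairpins the 3p arm gave more tags than the 5p arm, but to very unlike degrees. There were 290 ± 141 tags of the 3p strand for each 5p tag in miR-301b, 129.9 ± 25.7 in miR-301a, 54.8 ± 26.1 in miR-130a and 2.35 ± 0.578 in miR-130b. miR-130b was thus close to balanced, with 69.3% ± 5.38 of its tags from the 3p arm, although it lies beside the hairpin with the most one-sided use. Each of the 6 pairs of hairpins differed in the same direction in 7 of 7 libraries (exact sign-flip permutation test, two-sided, adjusted p = 0.0156, the smallest p that 7 libraries allow). The largest difference was 6.81 ± 0.52 log2 units, of miR-301b over miR-130b, and the smallest was -1.004 ± 0.63, of miR-301a over miR-301b. The value of miR-301b rests on few 5p tags, of which 77 of 135 began at the annotated start. When tags were restricted to starts near the annotated one the difference of miR-301a over miR-301b was -1.95.

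No change of arm use with the day was called. At day 4 relative to day 1 the log2 ratio of 3p to 5p tags differed by -0.37 for miR-130a, 0.26 for miR-130b, 0.04 for miR-301a and -0.30 for miR-301b (limma, adjusted p = 0.88 to 0.992), with 0% of 415 hairpins called (77 at an unadjusted p under 0.05). With the time course as a block 22 hairpins were called and 0 of the 4 members. Between the repeats, miR-130a had 44.4, 29.9, 32.1 and 32.2 tags of the 3p strand for each 5p tag in time course 2, against 92.1, 77.1 and 75.9 in time course 1. The time courses did not overlap for miR-130a and miR-130b, 2 of the 4 members, beside 11.3% of the 415 hairpins. The difference for miR-130a was a log2 of -1.18 (limma with day in the model, SE 0.41, unadjusted p = 0.0213, adjusted p = 0.243) and so did not pass over 415 hairpins, of which 0.241% were called. This comparison was chosen after the values had been seen.

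**Figure D3:**
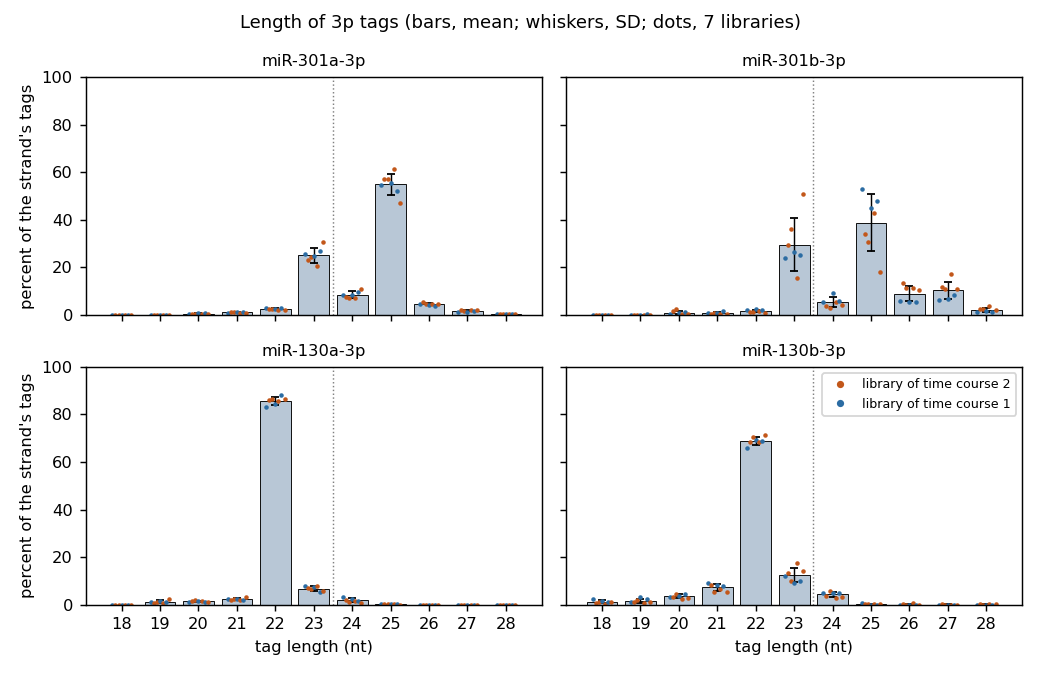
Percent of each 3p strand's tags (y) by tag length in nt (x), with bars for the mean, whiskers for the SD and dots for the 7 libraries. miR-301a-3p and miR-301b-3p peak at 25 nt and 23 nt with little between them, and miR-130a-3p and miR-130b-3p have a single peak at 22 nt.

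The 3p strands also differed in length. miR-301a-3p had 54.98% ± 4.50 of its tags at 25 nt, 2 bases past the annotated end, against 25.1% ± 3.12 at 23 nt, the annotated length, and 8.48% ± 1.46 at the 24 nt between them. miR-301b-3p had 38.8% ± 11.9 at 25 nt and 29.7% ± 11.3 at 23 nt, and extended further, with 10.4% ± 3.71 at 27 nt beside 1.80% ± 0.304 in miR-301a-3p. In miR-130a-3p 85.7% ± 1.65 of tags had the annotated 22 nt, and in miR-130b-3p 68.9% ± 1.72 did so. These are the most frequent forms of miR-301a-3p and the 26-nt form, with the bases past 23 in capitals.
miR-301a-3p, 23 nt: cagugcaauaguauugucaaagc
miR-301a-3p, 25 nt: cagugcaauaguauugucaaagcAU
miR-301a-3p, 26 nt: cagugcaauaguauugucaaagcAUC
The first form held 24.4%, the second 53.6% and the third 4.55% of the strand's tags, and all of them carry the same seed. Tags of 24 nt or more made up 70.4% ± 3.35 of miR-301a-3p, 66.6% ± 10.9 of miR-301b-3p, 2.14% ± 0.900 of miR-130a-3p and 4.94% ± 0.912 of miR-130b-3p. By the exact sign-flip permutation test over 7 libraries 5 of 6 pairs differed (adjusted p = 0.0188, 7 of 7 libraries in one direction), and miR-301a-3p against miR-301b-3p did not (difference 3.82 ± 8.75 percentage points, 4 of 7 libraries, adjusted p = 0.344). The annotated hairpin of miR-130a, of 64 nt, ends 1 base past its 3p strand, and nearly all 24-nt tags of this strand carry an uncalled base beyond it, so long tags of miR-130a may be under-counted. miR-130b, whose hairpin goes on past the strand, had 7 of 7 libraries above miR-130a by 2.80 ± 1.11 percentage points at 24 nt or more, a difference that did not pass at 25 nt or more (adjusted p = 0.0938).

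No change of length with the day was called either, the mean 3p length differing by -0.22 to -0.01 nt at day 4 relative to day 1 (limma, adjusted p = 0.903 to 0.991, 0% of 428 strands called, 17 at an unadjusted p under 0.05). Part of the spread of miR-301b-3p lay between the repeats. The 25-nt tags were 34.1%, 30.6%, 42.8% and 18.2% of the strand in time course 2, against 53.1%, 45.1% and 47.9% in time course 1. The 26-nt tags were 10.4% to 13.4% in time course 2 and 5.44% to 5.79% in time course 1. The 27-nt tags were 12.0%, 11.1%, 17.2% and 10.9% in time course 2, against 6.27%, 6.82% and 8.52% in time course 1. Of the 5 lengths that held at least 5% of miR-301b-3p tags these 3 did not overlap between the time courses, beside 9.83% of 1882 such forms over all strands, and the lengths of 23 and 24 nt did. In miR-301a-3p all 3 lengths that held at least 5% of tags overlapped, as did the 2 of miR-130a-3p and the 3 of miR-130b-3p. Over the member 3p strands 3 of 13 such forms thus lay apart. These 3 are shares of the same strand and so do not vary separately. The 27-nt tags of miR-301a-3p, below that limit, had 2.07%, 1.81%, 2.13% and 2.11% in time course 2, against 1.49%, 1.43% and 1.58% in time course 1. How many forms this scarce lie apart over all strands was not counted. The lengths shown were chosen after their values had been seen. The day 4 library of time course 2 stood at one end, with 51.1% of miR-301b-3p tags at 23 nt beside 15.4% to 36.0% in the other 6.

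A shifted 5′ start would change the seed, and such starts were rare in 3 of the 4 members. Among 3p tags starting within 3 nt of the annotated start, 0.768% ± 0.0906 of miR-130a-3p, 1.13% ± 0.190 of miR-301a-3p, 1.79% ± 0.708 of miR-301b-3p and 6.39% ± 1.97 of miR-130b-3p began elsewhere. For miR-301b-3p, without a RefSeq sequence, the most frequent start of its own tags stood in for the annotated one. In 7 of 7 libraries miR-130b-3p was above each of the others, by 4.60 to 5.63 percentage points (exact sign-flip permutation test, adjusted p = 0.0188). Its shifted tags were few, mainly 98 that began 1 base and 34 that began 3 bases downstream. The start 3 bases downstream made up 6.86% of the 218.5 tags of day 4 of time course 1. Among the remaining pairs miR-301b-3p was above miR-130a-3p by 1.02 ± 0.64 percentage points and miR-301a-3p above miR-130a-3p by 0.36 ± 0.23 (both adjusted p = 0.0188 by the same exact test, the second lost among tags without a mismatch, where it was 0.227 with an adjusted p of 0.075). miR-301a-3p against miR-301b-3p did not pass (difference -0.67 ± 0.83 percentage points, adjusted p = 0.125). The most frequent shifted forms of miR-130a-3p and of miR-301a-3p are given, with bases 2 to 8 of the tag in capitals.
miR-130a-3p, 1 base upstream: gCAGUGCAauguuaaaagggcau
miR-301a-3p, 1 base upstream: gCAGUGCAauaguauugucaaagcau
miR-130a-3p, 1 base downstream: aGUGCAAUguuaaaagggcau
miR-301a-3p, 1 base downstream: aGUGCAAUaguauugucaaagcau
An upstream start gives CAGUGCA, the seed of miR-148a-3p, miR-148b-3p and miR-152-3p. The family supplied 3133 of the 98904 tags with that seed, or 3.17%. A downstream start gives GUGCAAU, which no mouse miRNA in RefSeq has, and 99.9% of the 18459 tags with it came from the 4 hairpins. In miR-301a-3p the downstream start was the commoner, with 1.03% ± 0.195 of tags against 0.0558% ± 0.0133 upstream, whereas in miR-130a-3p the downstream and upstream starts had 0.377% ± 0.0485 and 0.360% ± 0.0731.

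**Figure D4:**
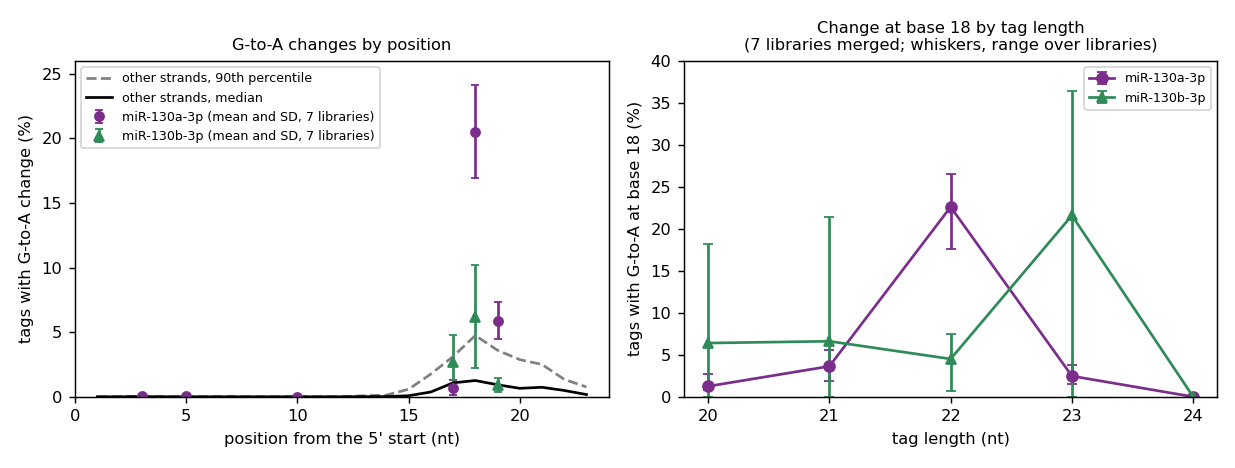
Left, percent of tags with a G-to-A change (y) by position of the G from the 5′ start (x) in miR-130a-3p and miR-130b-3p (mean and SD, 7 libraries), beside the median and the 90th percentile of other strands; right, percent of tags with the change at base 18 (y) by tag length in nt (x), with the range over libraries. Base 18 of miR-130a-3p stands at 20.5%, and its share is 22.6% at 22 nt and 2.47% at 23 nt; the 24-nt tags of miR-130a-3p carry an uncalled base and are not compared.

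Tags with an internal base change were frequent in the miR-130 members. In miR-130a-3p 29.4% ± 5.41 of tags had a mismatch and in miR-130b-3p 13.6% ± 4.62 did, against 2.65% ± 0.817 in miR-301a-3p and 0.736% ± 0.358 in miR-301b-3p. The most frequent changes lay in a run of 3 G that both miR-130 strands hold near the 3′ end. It is shown in capitals in the unchanged form, and the changed base is in capitals below it.
miR-130a-3p, unchanged: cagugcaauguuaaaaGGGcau
miR-130a-3p, G18A: cagugcaauguuaaaagAgcau
miR-130a-3p, G19A: cagugcaauguuaaaaggAcau
miR-130b-3p, unchanged: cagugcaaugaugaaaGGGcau
miR-130b-3p, G18A: cagugcaaugaugaaagAgcau
The 22-nt form with G18A alone had 112062 tags, beside 336141 of the unchanged 22-nt form. Counting each tag that covered the base with at least 2 further bases, G18A was in 17.9%, 23.6%, 22.6% and 24.1% of miR-130a-3p tags on days 1 to 4 of time course 2, and in 16.6%, 23.04% and 15.9% on days 1, 3 and 4 of time course 1. The time courses overlapped. G19A was in 5.88% ± 1.44 of tags. Among 17640 possible changes at bases covered by at least 1000 tags, G18A of miR-130a-3p ranked 6 and G18A of miR-130b-3p ranked 20. The base was the most changed of its strand by its own values, so no test is given. In miR-130b-3p the share was 7.17%, 9.46%, 9.68% and 10.5% in time course 2, against 1.58%, 4.07% and 0.928% in time course 1, on 160 changed tags in all. The strand had only 336, 257 and 218.5 tags on days 1, 3 and 4 of time course 1. How many other base changes lie apart between the time courses was not counted.

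This class of change depended on position in other miRNAs too. In strands outside the family a G at bases 2 to 15 had a median G-to-A share of 0.00217%, with 0.640% of 938 such bases above 1%, whereas at bases 16 to 19 the median was 0.851% and 45.1% of 277 bases were above 1%. At base 18 itself the median was 1.26% and the highest value 8.07% over 66 strands, so miR-130a-3p stood above all of them and miR-130b-3p, at 6.88% of merged tags, did not. The second G of a run of 3 outside the family had a median of 0.0114% and a highest value of 15.7% over 91 bases. These bases were taken at all positions of a strand, so their median cannot be set against that of base 18.

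The change also went with tag length. G18A was in 22.6% of the 22-nt tags of miR-130a-3p (17.6% to 26.6% over the libraries) but in 2.47% of the 23-nt tags (1.58% to 3.80%) and 3.63% of the 21-nt tags. Tags of miR-130a-3p of 24 nt are not compared, since nearly all of them already carry an uncalled base. In miR-130b-3p the share was higher at 23 nt (21.6%, 65 of 301 tags) than at 22 nt (4.51%, 74 tags), and at 24 nt 0 of 99 tags had the change. When changes in the last 5 bases of a tag were left out, G18A less the median base of the strand came to 2.01 percentage points in miR-130a-3p and 12.9 in miR-130b-3p, against 20.5 and 6.19 when the last 2 were left out. That setting drops every 22-nt tag at base 18, so it gives the longer tags alone. In miR-301a-3p the most frequent change, A20G, was in 0.814% ± 0.270 of tags, and its share too was highest at the modal length, with 1.25% of 25-nt tags, 0.0220% of 26-nt tags and 0.148% of 23-nt tags. In miR-301b-3p it was G10A (0.391% ± 0.209 of tags of all lengths), the base of miR-301a at that place. G10A could be found at 27 nt or more alone, since a shorter tag with A at base 10 is placed on miR-301a. Most tags of the strand are shorter and so could not show it, and at 27 nt 96 of 3315 tags had it. These have A at base 10 and U at base 27, so their origin cannot be told, as stated above. The share of G10A is therefore no measure of change in miR-301b. The mapping took a base change as genuine where adjacent colour calls were of good quality and accepted isolated mismatches at low quality alone, and whether the changes arose in the cells or in sequencing was not tested.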

How the data were processed

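The authors enriched small RNA by electrophoresis, sequenced it on SOLiD, aligned it to the hairpins of miRBase 16 by the SOLiD Small RNA Pipeline (mouse build mm9 in the labels), and deposited raw counts per tag sequence. From these counts, tags were placed again on 2202 GENCODE M21 hairpins (GRCm38). 92.9% were placed without a mismatch, 6.78% with 1, 0.0448% with 2, and 0.259% were not placed. The 101 lines (293 tags) without a sequence were left out. A tag that fit several strands equally was divided among them and rounded. Arms were split at the hairpin's midpoint. edgeR 4.0.16 (TMM, filterByExpr, day as factor over the 7 libraries with 3 residual degrees of freedom, and a common biological variation of 0.38), limma 3.58.1 and DESeq2 1.42.0 were run in R 4.3.3, with a threshold of 0.05. The single day 2 library is assumed to vary like the others. Arm use took hairpins with at least 100 tags and added 0.5 to each arm, and length took strands with at least 20 tags per library. Members were compared by exact sign-flip tests over libraries, adjusted over 6 pairs. Deviations of libraries with the same replicate number, which marks the time course, correlated over 789 strands (r = 0.43 for days 1 and 3, 0.45 for days 1 and 4, 0.40 for days 3 and 4), and the time courses were independent repeats by the study's methods, so a model that blocks on this number was run as well. All strands of the 4 hairpins, miRNAs sharing the seed, offset seeds, the 3 most similar strands by Pearson r and the most changed base of each member are named. The members and lists were chosen with earlier results of these data known. The placement and the models were tested on simulated data. Alternative settings covered normalization, filters, mismatches, start windows and leaving out each library.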

Additional observations from a re-analysis of the deposited data

How the results depend on the processing

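Leaving out each library in turn kept 0 calls at days 4, 3 and 2, for seeds and for arm use by day, 6 of 6 pairs in arm use and 5 of 6 pairs in length and start. It moved the calls between time courses from 104 to between 6 and 84, those of arm use between time courses from 1 to between 0 and 20, and those of length by day from 0 to between 0 and 3. Without the day 2 library its contrast could not be fitted. With the replicate block 78, 52 and 4 strands were called at days 4, 3 and 2 and 22 hairpins in arm use, none a member. It changed no other call. DESeq2 called 8 strands at day 4, and a 2-fold rule in both time courses took 6 of 156. Tags without a mismatch gave 31 calls between time courses and 1 in arm use by day, seeds with no filter gave 8, and arm use between time courses with at least 1000 tags gave 4. Counting no change in the last 5 bases of a tag lowered G18A of miR-130a-3p, less the median base of its strand, to 2.01 percentage points, since it drops all 22-nt tags at that base, while leaving out a library gave 19.9 to 21.3. At day 4 miR-130a-3p turned to -0.15 with library totals, -0.030 with no filter and -0.013 with the block, miR-130b-5p to 0.028 without mismatches and 0.077 with starts near the annotated one, and miR-301b-5p to -0.37 with such starts. Leaving out a library also turned some directions, none past the threshold. At day 4 the log2 range was -0.56 to 0.42 for miR-130a-3p, -0.26 to 0.55 for miR-130b-3p, -0.066 to 0.72 for miR-130a-5p, -0.76 to 0.48 for miR-130b-5p, -0.011 to 1.16 for miR-301b-5p and -0.029 to 0.32 for the seed. Between time courses it was -0.36 to 0.0078 for miR-301a-5p and -0.48 to 0.31 for miR-301b-5p. For arm use it was -0.99 to 0.25 for miR-130a, -0.22 to 0.30 for miR-301a and -0.70 to 0.091 for miR-301b at day 4, and -0.48 to 0.45 for miR-301b between time courses. The mean length of miR-130b-3p ranged from -0.090 to 0.067 nt. Of 524 alternative values, 486 kept their direction and side of the threshold or stayed within the stated spread. The comparison of arm use between time courses and its alternatives were chosen after seeing the data. With 135 tags, miR-301b-5p allows no firm value.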
